A study of Homo sapiens with 6 samples.

Results

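The genes described here are 10 members of the SLC39 family, which encode zinc importers of the ZIP type: SLC39A1, SLC39A3, SLC39A4, SLC39A6, SLC39A7, SLC39A8, SLC39A9, SLC39A10, SLC39A11 and SLC39A14. They were taken by gene name from a table of 48183 names, in which 17 of the 61196 gene identifiers carry one of these names and identifiers with a shared name were summed. Bulk RNA-seq of human embryonic stem cells (ESCs) was compared between 4 libraries of naive cells, a state akin to the epiblast before implantation, and 2 libraries of primed cells, the conventional state. Naive cells carried 62.7-fold more SLC39A4 RNA than primed cells and more SLC39A11 RNA, whereas SLC39A6, SLC39A8, SLC39A14, SLC39A10 and SLC39A9 were lower in naive cells. The most abundant members per transcript length in naive cells, SLC39A1 and SLC39A7, did not pass the test. All 10 genes had at least 10 counts in every library and were tested.

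The naive libraries came from cells induced with AICAR, an activator of the kinase AMPK (AICAR 1 and AICAR 2, 14 days of induction and then 14 or 15 passages), with doxycycline-driven CA-p38, a constitutively active form of the kinase p38 (CA-p38, 7 days and 12 passages), or with VPA, valproic acid (VPA, 9 days and 12 passages). Every line carried the EOS reporter, the CA-p38 cells came from a derivative that also held the CA-p38 transgene, and the labels name the parental cells H1 whereas the text of the study names H9. The primed libraries were 1 each of the untreated parental lines, primed EOS and primed CA-p38, grown on Matrigel in StemFit AK02N. Naive cells had been expanded in PXGL medium and sorted for CD75 and SUSD2 before RNA was extracted. The study describes growth on mouse feeder cells, and for CA-p38 cells also a later move to PXGL without feeder cells. Whether the CA-p38 cells sequenced here were on feeder cells is not stated. State, medium, any feeder cells and sorting therefore cannot be told apart in the comparison. The libraries of a state differed in line or inducer, apart from AICAR 1 and AICAR 2. Nothing states that AICAR 1 and AICAR 2 came from separate inductions, and p-values measure only the spread between these libraries. Library totals ran from 46823699 to 54277064 counts. Naive marker genes summed to between 5066 and 5989 CPM (counts scaled to a common library size with TMM factors, the trimmed mean of M values) in naive and to 8.50 and 12.3 CPM in primed libraries. That list held SUSD2, on which the cells were sorted, at 427 to 668 CPM in naive libraries. Its highest values were those of ALPG, at 1975 to 2441 CPM, and DNMT3L, at 1194 to 1419 CPM, and the study names both. Primed markers summed to between 78.1 and 95.9 CPM in naive and to 2800.3 and 3395 CPM in primed libraries. Of 8 fibroblast markers 7 were tested, 4 were lower and none higher in naive cells, and they summed to between 30.9 and 72.9 CPM in naive and to 191 and 209 CPM in primed libraries. Those not called were COL3A1, with 3.57 to 16.6 CPM in naive and 4.75 and 2.19 CPM in primed libraries, DCN, with 0.764 to 1.21 against 0.566 and 0.511 CPM, and LUM, with 0 to 1.17 against 0.121 and 0.0409 CPM. The CA-p38 library had the highest naive value of all 3, and FAP was at 0 in every library but AICAR 2. Of 6 trophectoderm markers tested 4 were higher, at sums of 17.1 to 18.0 CPM against 4.30 and 5.50 CPM. CDX2, 1 of the 4, had at most 1 count in a primed library. It passed the filter on low counts only through the naive libraries, so its call adds no support. Of 8 hypoblast markers 1 was higher and 6 were lower, at sums of 80.8 to 115 CPM against 308 and 349.9 CPM. Of all names tested, 26% were higher and 27% lower. The part of these marker differences in the values below was not tested. In bulk samples fewer cells of a type and less RNA per cell cannot be told apart.

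ZIP proteins move zinc into the cytosol, either across the plasma membrane or out of organelles, and the SLC30 exporters move it the other way. Metallothioneins are small cysteine-rich proteins that bind zinc and copper. The zinc-sensing factor MTF1 induces metallothionein genes through metal response elements in their promoters, and zinc levels also change the RNA or the protein of several transporters.

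Promoters of the zinc genes were searched for the core of the metal response element, TGCACNC or TGCGCNC, on both strands, in RefSeq windows (GRCh38.p14) of 250 bases before to 50 after each transcription start. RefSeq windows were given for 8 of the 10 genes, 13 windows in all, and not for SLC39A4 and SLC39A14. The core was found in 5 of the 13 windows (38.5%), each time once, against 29.6% of 35116 windows of the same length over all genes. Of the 11 metallothionein genes, 5 were in the table, and their windows held 8 (MT2A), 8 (MT1H), 4 (MT1X), 3 (MT1B) and 3 (MT4) cores, whereas 2.30% of all windows held 3 or more. MT1A, MT1E, MT1F, MT1G, MT1M and MT3 were not in it. The 250 bases before the start are given for the 4 SLC39 genes with a core there and for MT2A and MT1X to show the difference in number, 5′ to 3′ on the gene's own strand, with each core on either strand in capitals.
SLC39A1, chr1:153963538-153963787, minus strand: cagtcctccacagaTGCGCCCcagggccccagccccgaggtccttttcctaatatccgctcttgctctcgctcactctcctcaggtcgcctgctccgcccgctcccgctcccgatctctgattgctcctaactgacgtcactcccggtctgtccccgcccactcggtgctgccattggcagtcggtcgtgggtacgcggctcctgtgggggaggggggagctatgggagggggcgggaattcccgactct
SLC39A3, chr19:2740077-2740326, minus strand: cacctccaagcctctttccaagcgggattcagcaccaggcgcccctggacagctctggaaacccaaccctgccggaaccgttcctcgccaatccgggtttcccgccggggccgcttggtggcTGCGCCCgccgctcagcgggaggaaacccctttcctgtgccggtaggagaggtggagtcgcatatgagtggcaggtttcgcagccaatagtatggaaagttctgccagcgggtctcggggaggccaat
SLC39A6, chr18:36129341-36129590, minus strand: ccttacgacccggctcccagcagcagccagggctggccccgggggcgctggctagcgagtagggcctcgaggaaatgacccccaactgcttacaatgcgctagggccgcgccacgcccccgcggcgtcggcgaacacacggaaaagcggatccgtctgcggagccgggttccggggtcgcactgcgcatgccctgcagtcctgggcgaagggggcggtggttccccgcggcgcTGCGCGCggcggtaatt
SLC39A8, chr4:102345483-102345732, minus strand: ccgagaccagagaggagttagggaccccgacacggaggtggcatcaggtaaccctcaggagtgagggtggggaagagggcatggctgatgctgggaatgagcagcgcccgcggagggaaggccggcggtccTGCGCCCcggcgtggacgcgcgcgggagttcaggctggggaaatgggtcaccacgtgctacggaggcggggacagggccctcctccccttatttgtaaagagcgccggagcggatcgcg
MT2A, chr16:56608334-56608583, plus strand: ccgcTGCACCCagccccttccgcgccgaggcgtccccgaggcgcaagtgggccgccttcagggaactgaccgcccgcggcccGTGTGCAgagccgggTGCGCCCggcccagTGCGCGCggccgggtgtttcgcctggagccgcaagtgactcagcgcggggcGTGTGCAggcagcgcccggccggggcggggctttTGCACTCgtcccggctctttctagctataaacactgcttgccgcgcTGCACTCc
MT1X, chr16:56682220-56682469, plus strand: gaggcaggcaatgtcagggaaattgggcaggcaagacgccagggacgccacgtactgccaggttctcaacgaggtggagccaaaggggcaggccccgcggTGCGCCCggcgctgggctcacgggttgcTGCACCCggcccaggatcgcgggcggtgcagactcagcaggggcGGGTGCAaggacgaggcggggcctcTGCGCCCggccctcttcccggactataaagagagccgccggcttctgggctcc

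The single core lay 236 bases before the start in SLC39A1, in the second of its 2 windows, 128 before it in SLC39A3, 17 in SLC39A6 and 119 in SLC39A8, in 1 of its 3 windows. In SLC39A10 it began 33 bases after the start. A match in these letters is a description and not a bound site. Of the genes with a core, SLC39A6, SLC39A8 and SLC39A10 were lower in naive cells, and SLC39A1 and SLC39A3 were not called. Of those whose windows held none, SLC39A9 was lower, SLC39A7 was not called and SLC39A11 was higher. A relation between core and level was not tested.

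**Figure D1:**
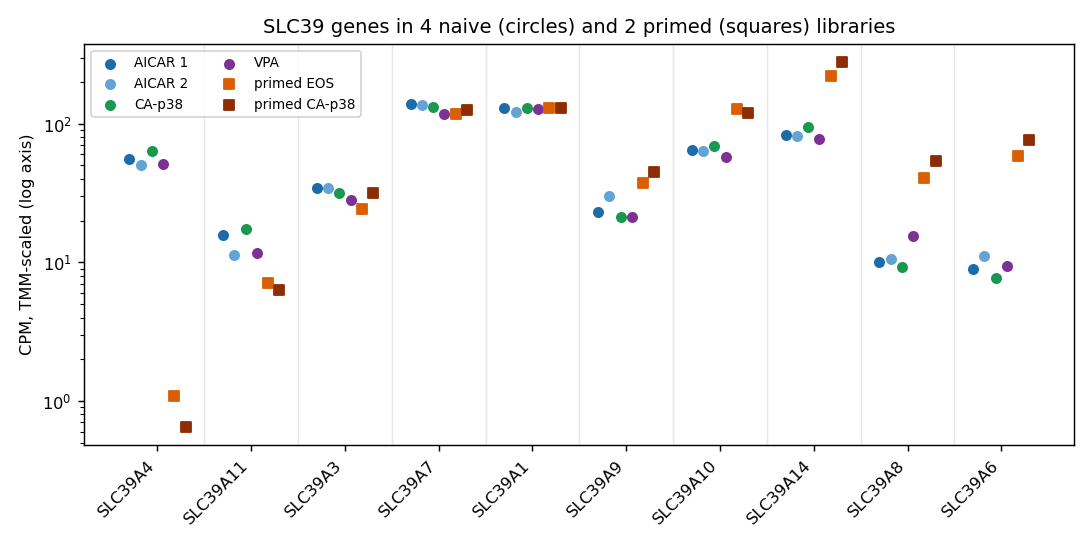
Level of each SLC39 gene in CPM, scaled by TMM, on a log axis, with 1 point per library: circles for the 4 naive and squares for the 2 primed libraries, genes ordered by fitted fold change. SLC39A4 lies between 50.2 and 63.1 CPM in naive libraries and at 1.09 and 0.654 CPM in primed ones, and the order of the states turns over at the other end, where SLC39A6 lies between 7.66 and 11.2 CPM against 58.6 and 76.8 CPM.

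Naive and primed libraries were compared gene by gene by edgeR's quasi-likelihood F-test, and p-values were adjusted by Benjamini-Hochberg over all 26497 names tested, at a threshold of 0.05. Among the 10 SLC39 genes, 2 passed as higher in the naive state, against 26% of all names tested, and 5 as lower, against 27%. In 2 genes every naive library lay above both primed libraries (32.9% of all names), in 6 every naive library lay below both (32.1%), and in 2 the states overlapped. The median log2 fold change was -0.41 over the 10 genes and 0.11 over all names tested, and that of all names was 0.21 with library totals and 0.06 with median-ratio factors. Of the 7 called genes 5 differed at least 2-fold, as did 66.5% of the 14058 names called in all.

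SLC39A4 (chr8:144409742-144416844, minus strand, GRCh38) encodes ZIP4, the intestinal zinc importer that is mutated in acrodermatitis enteropathica. Naive libraries gave 55.4 CPM (AICAR 1), 50.2 CPM (AICAR 2), 63.1 CPM (CA-p38) and 50.9 CPM (VPA), whereas the primed lines gave 1.09 CPM (EOS) and 0.654 CPM (CA-p38). The 4 naive libraries lay close together and far above both primed libraries. Its log2 fold change was 5.97 (SE 0.23, adjusted p = 4.85e-10), or 62.7-fold, and 494 of the 26497 names (1.86%) had a larger one. The primed values rest on 54 and 32 counts, with exact Poisson 95% intervals of 0.819 to 1.42 and 0.447 to 0.923 CPM, which like all intervals here cover counting error only. SLC39A4 is listed under 2 identifiers, and fitted apart they gave log2 fold changes of 5.89 (SE 0.24) and 6.00 (SE 0.28). A long noncoding RNA on the other strand, ENSG00000272115, shares 180 exon bases with it and had between 1 and 22 counts in each library.

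SLC39A11 (chr17:72645949-73092712, minus strand) encodes ZIP11, which stands apart from the other members in sequence. Its level was 15.7 and 11.2 CPM in AICAR 1 and AICAR 2, 17.5 CPM in CA-p38 and 11.6 CPM in VPA, and 7.11 and 6.34 CPM in primed EOS and primed CA-p38. All naive values were above the primed ones, and the 2 AICAR libraries lay on either side of the VPA library. The log2 fold change was 1.06 (SE 0.22, adjusted p = 0.00146).

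SLC39A6 and SLC39A10 encode ZIP6 and ZIP10, close relatives that form a joint transporter at the plasma membrane. SLC39A6 (chr18:36108531-36129385, minus strand) was measured at 8.92, 11.2, 7.66 and 9.43 CPM in AICAR 1, AICAR 2, CA-p38 and VPA, against 58.6 and 76.8 CPM in primed EOS and primed CA-p38. It fell by 2.86 on the log2 scale (SE 0.16, adjusted p = 1.23e-08), or 7.28-fold, and 5.48% of all names had a more negative change. SLC39A10 (chr2:195575977-195737702, plus strand) stood at 65.1, 63.9, 69.5 and 57.6 CPM in the same naive libraries and at 127 and 119.8 CPM in the primed ones. Both genes were below the primed values in every naive library. SLC39A10 fell by 0.95 (SE 0.11, adjusted p = 7.56e-06), and 20.1% of all names had a more negative change.

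Divided by the length of the canonical transcript (GENCODE release 44), SLC39A6 and SLC39A10 together had a summed level of 14.9 ± 0.825 CPM per kb in naive (SD, n = 4) and 42.6 ± 2.62 CPM per kb in primed libraries (SD, n = 2). On that scale SLC39A10 exceeded SLC39A6 in naive cells, 12.3 against 2.61 CPM per kb, without overlap between libraries. In primed cells they stood at 23.6 and 19.0 CPM per kb, with 24.3 and 22.9 for SLC39A10 and 16.4 and 21.5 for SLC39A6.

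SLC39A8 and SLC39A14 encode ZIP8 and ZIP14, related importers that carry manganese and iron as well as zinc. SLC39A14 (chr8:22367278-22434129, plus strand) was the member with the highest undivided level in primed cells, at 219.6 and 278 CPM in primed EOS and primed CA-p38, and had 82.4, 81.9, 95.3 and 77.8 CPM in AICAR 1, AICAR 2, CA-p38 and VPA. Each naive value was between 0.343 and 0.375 of that of its own parental line. The log2 fold change was -1.56 (SE 0.12, adjusted p = 1.78e-07). SLC39A8 (chr4:102251080-102431258, minus strand) had 10.04, 10.6 and 9.26 CPM in AICAR 1, AICAR 2 and CA-p38 and 15.5 CPM in VPA, against 40.6 and 53.4 CPM in primed EOS and primed CA-p38. VPA was the highest naive library, and all 4 were below both primed libraries. SLC39A8 fell by 2.05 on the log2 scale (SE 0.20, adjusted p = 1.72e-06). Per kb the pair summed to 21.7 ± 1.17 CPM in naive (SD, n = 4) and 68.3 ± 11.7 CPM in primed libraries (SD, n = 2).

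SLC39A9 (chr14:69398015-69462390, plus strand) encodes ZIP9, a transporter of the Golgi and the plasma membrane. It had 23.2, 29.98, 21.2 and 21.3 CPM in AICAR 1, AICAR 2, CA-p38 and VPA, and 37.5 and 44.9 CPM in primed EOS and primed CA-p38. AICAR 2 came closest to the primed values without reaching them. The log2 fold change was -0.78 (SE 0.16, adjusted p = 0.00108), the smallest of the 5 falls. ERH, on the other strand, shares 69 exon bases with SLC39A9 and had between 5063 and 8952 counts in each library, against 1072 to 2196 of SLC39A9, and whether the counting used the strand is not stated.

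The genes that did not pass the test were SLC39A1, SLC39A3 and SLC39A7. SLC39A1 (chr1:153959099-153968184, minus strand) encodes ZIP1, a widely expressed importer at the plasma membrane. It lay at 129, 122, 129 and 127 CPM in AICAR 1, AICAR 2, CA-p38 and VPA and at 130.1 and 129.8 CPM in primed EOS and primed CA-p38, so that all naive values were just below the primed ones. Its log2 fold change was -0.03 (SE 0.09, adjusted p = 0.780), and 0.06 with library totals as scaling. SLC39A1 shares 2061 exon bases with a protein-coding gene on the same strand, ENSG00000285779, which had between 751 and 896 counts in each library, and 280 with CREB3L4 on the other strand.

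SLC39A7 (chr6:33200305-33204439, plus strand) encodes ZIP7, which releases zinc from the endoplasmic reticulum and Golgi. Its level was 139.8, 136, 132 and 118 CPM in AICAR 1, AICAR 2, CA-p38 and VPA and 117 and 125 CPM in primed EOS and primed CA-p38, and the states overlapped. The log2 fold change was 0.12 (SE 0.11, adjusted p = 0.371). SLC39A7 is listed under 6 identifiers, 1 of them on the reference chromosome in the annotation, with similar counts, and the fits of the single identifiers ran from 0.06 to 0.13. SLC39A3 (chr19:2732204-2740028, minus strand) encodes ZIP3, another importer at the plasma membrane. It had 34.2, 34.3, 31.9 and 28.2 CPM in the naive libraries, in the same order, and 24.3 and 31.8 CPM in the primed ones. The VPA value lay between the primed values, and the log2 fold change was 0.20 (SE 0.15, adjusted p = 0.285). These p-values do not show that the 3 genes were the same in both states. SLC39A3 shares 416 exon bases with a protein-coding gene on the same strand, ENSG00000267001, which had between 260 and 424 counts in each library.

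The order of the genes by level per kb differed between the states. In naive cells SLC39A1 came first with 62.3 ± 1.59 CPM per kb, followed by SLC39A7 with 54.5 ± 4.03, SLC39A4 with 25.9 ± 2.79 and SLC39A3 with 23.5 ± 2.09 (SD, n = 4). The libraries of SLC39A4 and SLC39A3 overlapped, whereas those of SLC39A1 and SLC39A7 did not. SLC39A14 and SLC39A10 followed with 18.1 and 12.3 CPM per kb, each apart from its neighbors. SLC39A11, SLC39A9, SLC39A8 and SLC39A6 came last, between 5.13 and 2.61 CPM per kb, and each overlapped the next. In primed cells SLC39A1 was also first, with 63.8 ± 0.132 CPM per kb, and SLC39A14 was second with 53.3 ± 8.82, overlapping SLC39A7 with 50.2 ± 2.51 (SD, n = 2). SLC39A10, SLC39A3, SLC39A6 and SLC39A8 formed a run from 23.6 to 14.9 CPM per kb in which each overlapped the next. SLC39A9, SLC39A11 and SLC39A4 ended the order with 7.63, 2.46 and 0.411 CPM per kb, each apart. With canonical transcript lengths SLC39A4 stood at rank 3 of 10 in naive and at rank 10 in primed cells. Its naive rank was lower with the length of all annotated exons or without division by length. How the mapping handled reads shared between identifiers of SLC39A4 or SLC39A7 is uncertain. The same holds for reads shared between SLC39A1 and ENSG00000285779 or between SLC39A3 and ENSG00000267001. Ranks and shares may depend on this handling.

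The summed level of the 10 genes was 218, 211, 221 and 199 CPM per kb in AICAR 1, AICAR 2, CA-p38 and VPA and 241 and 271 CPM per kb in primed EOS and primed CA-p38. The naive sum was 0.8295 of the primed one, 0.890 with library totals and 0.800 with median-ratio factors, and the states did not overlap under any of these scalings. Without division by length the ratio was 0.678. The genes that were not called, SLC39A1, SLC39A3 and SLC39A7, made up 66.1% ± 1.31 of the naive sum (SD, n = 4) and 52.7% ± 1.91 of the primed sum (SD, n = 2). SLC39A6, SLC39A8, SLC39A10 and SLC39A14, a set put together after their values were seen, made up 17.2% ± 0.577 and 43.2% ± 2.01. SLC39A4 alone made up 12.2% ± 0.947 of the naive sum and 0.163% ± 0.0704 of the primed sum.

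**Figure D2:**
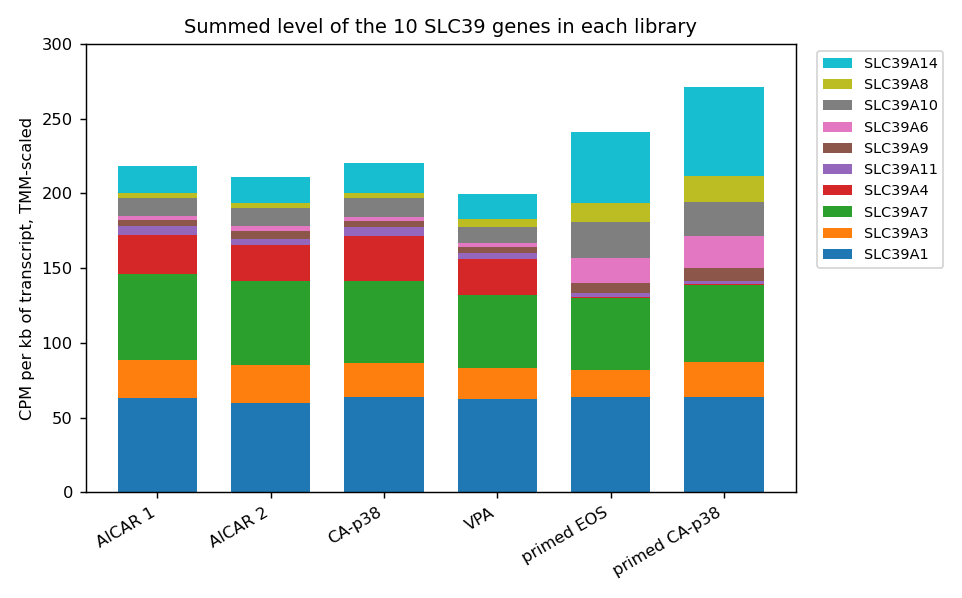
Stacked levels of the 10 SLC39 genes in each library, in TMM-scaled CPM per kb of canonical transcript, with no error bars since each bar is 1 library. SLC39A1, SLC39A3 and SLC39A7 at the base sum to between 130.1 and 146 CPM per kb in all 6 libraries, the SLC39A4 segment is between 23.7 and 29.7 in naive and at 0.514 and 0.308 in primed libraries, and the SLC39A6, SLC39A10, SLC39A8 and SLC39A14 segments sum to between 35.3 and 38.8 in naive and to 101 and 121 in primed libraries.

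Each naive library was also set against the primed library of its own parental line. Of the 4 ratios of a gene, 3 share primed EOS as their denominator. For SLC39A4 they were 50.8 (AICAR 1), 46.1 (AICAR 2) and 46.7 (VPA) over primed EOS, and 96.5 for CA-p38 over its primed parent, with an exact 95% counting interval of 68.2 to 141 for the last. The CA-p38 library had the highest ratio, over a primed library with 32 counts. SLC39A6 ranged from 0.0997 in CA-p38 to 0.191 in AICAR 2, SLC39A8 from 0.173 in CA-p38 to 0.382 in VPA, and SLC39A9 from 0.473 in CA-p38 to 0.800 in AICAR 2. SLC39A14 and SLC39A10 varied less, from 0.343 to 0.375 and from 0.453 to 0.580. SLC39A11 ranged from 1.58 in AICAR 2 to 2.76 in CA-p38.

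Whether the difference between the states differed between the EOS and the CA-p38 line was tested as an interaction in edgeR. The CA-p38 line was also the only one induced by CA-p38, for 7 days, so line, inducer and days of induction cannot be told apart in this test. None of the 10 genes passed with adjustment over all names (adjusted p = 0.9999 for each), 2 of them (SLC39A4 and SLC39A6) had an unadjusted p under 0.05, and of all 26497 names 853 (3.22%) did. The test called 1 name in all (0.00377%). Its spread came from the 3 naive EOS libraries alone, the other 3 cells of the design held 1 library each, and a missed threshold does not show that the lines were alike. The interaction was 1.01 (SE 0.36) for SLC39A4 and -0.75 (SE 0.31) for SLC39A6 on the log2 scale. AICAR and VPA, with 2 libraries and 1, were not compared by a test.

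**Figure D3:**
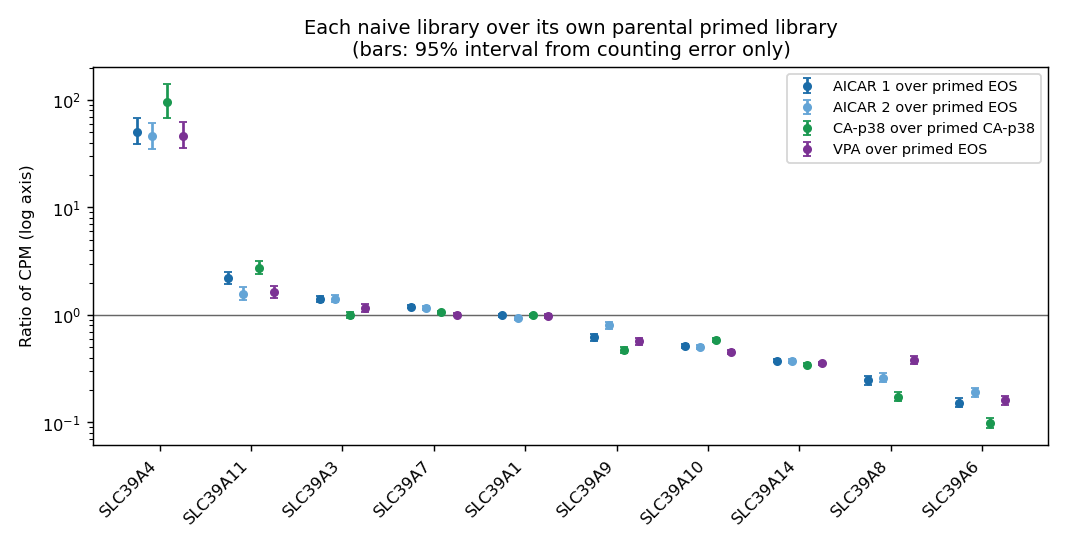
Ratio of the TMM-scaled CPM of each naive library to that of its own parental primed library, on a log axis, with exact 95% intervals from counting error only and a line at 1. The points of SLC39A4 lie between 46.1 and 96.5, those of SLC39A6 between 0.0997 and 0.191, and those of SLC39A1 between 0.939 and 0.996.

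The metallothionein genes rose in the same naive libraries. All 8 that passed the filter on low counts, of 11 listed, passed the test as higher (26% of all names tested did). Their median log2 fold change was 6.21, or 5.76 with MT1A and MT1M at their lower bounds. Their summed level was 1015, 788, 733 and 866 CPM in AICAR 1, AICAR 2, CA-p38 and VPA and 91.6 and 31.6 CPM in primed EOS and primed CA-p38. MT1G, MT1H and MT1E had the highest means in naive cells, with between 207 and 300.4, 147 and 230.0, and 121 and 159.8 CPM, and at most 6.18, 2.75 and 2.22 CPM in primed libraries. Their log2 fold changes were 6.01 (SE 0.49, adjusted p = 3.5e-07), 6.84 (SE 0.52, adjusted p = 1.94e-07) and 6.41 (SE 0.27, adjusted p = 7.97e-10). MT1F, with 45.7 to 51.5 CPM in naive and 1.37 and 0.695 CPM in primed libraries, had 5.52 (SE 0.24, adjusted p = 1.42e-09). MT2A, the family's main member in many tissues, had 106 to 117 CPM against 10.3 and 6.15 CPM, a log2 fold change of 3.77 (SE 0.19, adjusted p = 5.21e-09). MT1X differed least, with 95.6 to 146 CPM in naive libraries, which overlapped MT1E, against 68.7 and 22.2 CPM and a log2 fold change of 1.40 (SE 0.35, adjusted p = 0.0042). MT1A and MT1M had at most 1 count in a primed library. They passed the filter only through the naive libraries, so their calls as higher add no support. Against a floor of 3 counts in each library they were at least 41.4-fold and 187-fold higher in naive cells, with 2.52 ± 0.867 and 11.4 ± 2.74 CPM (SD, n = 4). MT1B, MT3 and MT4 were not tested and had at most 0.134 CPM in any library. The MT1 genes resemble each other closely in sequence, and how the mapping split reads between them is uncertain.

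Set side by side, SLC39A4 had a log2 fold change of 5.97, and the metallothioneins ran from 1.40 (MT1X) to at least 7.55 (MT1M). The exporter SLC30A2, at 3.43, also lay in that wide range. The other 9 SLC39 genes ran from -2.86 to 1.06. MTF1 was measured at 17.8, 15.6, 16.0 and 10.6 CPM in AICAR 1, AICAR 2, CA-p38 and VPA and at 12.9 and 15.1 CPM in primed EOS and primed CA-p38, and it did not pass the test (log2 fold change 0.10, SE 0.20, adjusted p = 0.707).

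**Figure D4:**
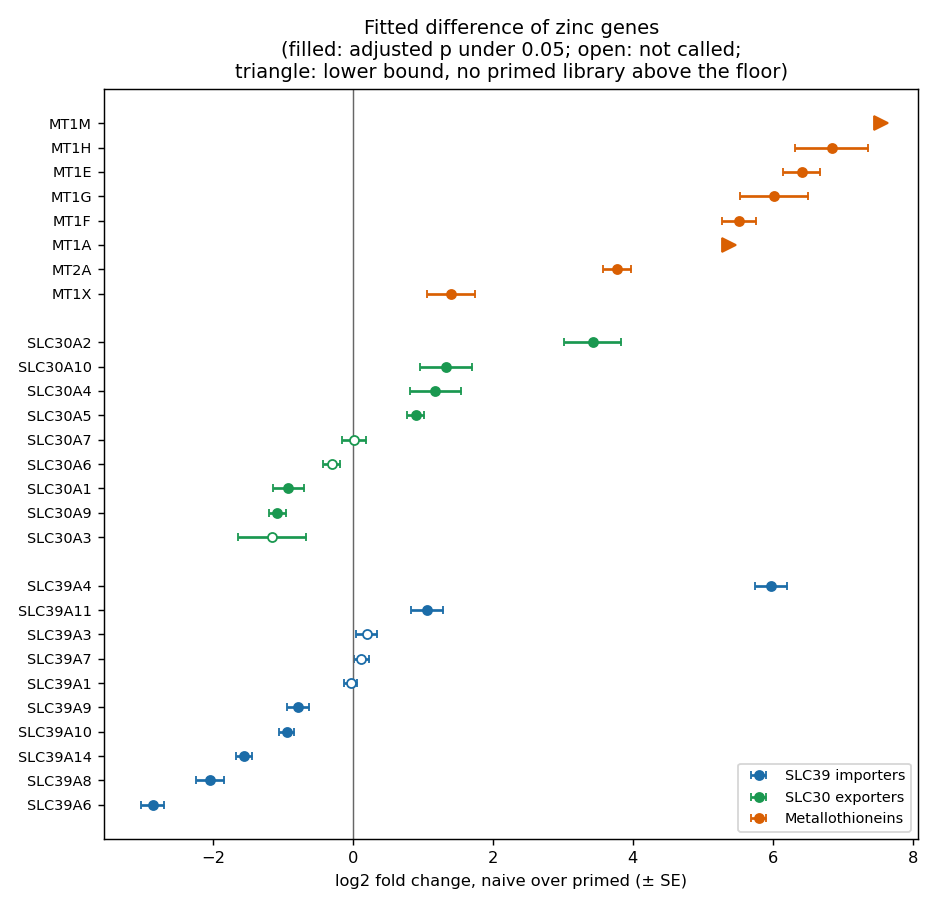
Fitted log2 fold change, naive over primed, with its SE, for the SLC39 importers, the SLC30 exporters and the metallothioneins that were tested. Filled circles passed an adjusted p of 0.05, open circles did not, and triangles mark lower bounds for MT1A (5.37) and MT1M (7.55). The metallothioneins all lie to the right of 0, from 1.40, while the importers and exporters lie on both sides.

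Among the SLC30 zinc exporters, 9 of 10 were tested, of which 4 rose, 2 fell and 3 did not pass. Of all names tested, 26% were higher and 27% lower. SLC30A2, which loads vesicles with zinc, had the largest rise, with 5.04, 8.63, 7.26 and 3.63 CPM in AICAR 1, AICAR 2, CA-p38 and VPA against 0.545 and 0.593 CPM in primed EOS and primed CA-p38 (log2 fold change 3.43, SE 0.41, adjusted p = 1.35e-05). SLC30A10, known as a manganese exporter, had 1.33 (SE 0.37, adjusted p = 0.0095) at 1.94 ± 0.378 CPM in naive libraries (SD, n = 4). SLC30A4 and SLC30A5 also rose, by 1.18 and 0.90. SLC30A1, the exporter of the plasma membrane and itself a known MTF1 target, was lower, with 20.5, 22.8, 17.0 and 11.2 CPM against 31.1 and 36.9 CPM (log2 fold change -0.93, SE 0.22, adjusted p = 0.0034). SLC30A9, a mitochondrial zinc carrier, fell by 1.08 (SE 0.12, adjusted p = 5.24e-06). The direction of SLC30A1 was opposite to that of the metallothioneins in the same libraries, and the cause of either was not tested. The median log2 fold change of the 9 exporters was 0.01.

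Of the other 4 SLC39 genes, only SLC39A13, which encodes a zinc transporter of Golgi and vesicles, was tested. It had 14.4, 15.2, 15.5 and 15.9 CPM in AICAR 1, AICAR 2, CA-p38 and VPA and 15.2 CPM in both primed libraries (log2 fold change 0.01, SE 0.15, adjusted p = 0.967). SLC39A2, SLC39A5 and SLC39A12 had at most 0.178 CPM in any library.

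A list drawn up for iron and manganese handling, the other cargo of ZIP8 and ZIP14, held 8 genes, and all were tested. Of these, 2 were higher, 3 lower and 3 not called, whereas of all names tested 26% were higher and 27% lower. ATP13A1, an ATPase of the endoplasmic reticulum, rose by 1.04 on the log2 scale (SE 0.13, adjusted p = 2.47e-05), and TFRC, the transferrin receptor, by 0.41 (SE 0.13, adjusted p = 0.0199). SLC41A1, on the list but known as a magnesium carrier, fell by 1.24 (SE 0.15, adjusted p = 1.46e-05). FTL, the ferritin light chain, fell by 0.79 (SE 0.11, adjusted p = 4.96e-05). The iron exporter SLC40A1 had 0.349, 0.221, 0.712 and 3.88 CPM in AICAR 1, AICAR 2, CA-p38 and VPA and 0.485 and 0.511 CPM in the primed libraries, and it was not called (log2 fold change 1.37, SE 0.95, adjusted p = 0.243). Of 6 genes of copper handling, 2 were higher, 1 lower and 3 not called, beside the same shares of all names. CCS, the copper chaperone of superoxide dismutase, rose by 1.05 (SE 0.17, adjusted p = 0.000187), ATP7B, a copper exporter, rose by 0.74 (SE 0.20, adjusted p = 0.00668), and ATP7A, its relative, fell by 0.95 (SE 0.26, adjusted p = 0.00768).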

How the data were processed

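Polyadenylated RNA of 6 libraries was sequenced after a SMART-Seq Stranded preparation. The deposited values are raw counts, 1 row per Ensembl gene, for which the authors trimmed reads with Trim Galore 0.4.4 and cutadapt 1.15, mapped them with Bowtie2 to Ensembl release 100 transcripts (coding and noncoding, GRCh38) and counted alignments at a mapping quality of at least 1. RSEM and limma are also named in the submitters' processing notes. Strand use in counting is not given in the sources used here. The 23 other columns of the table were not used, nor were 26 spike-in rows, which held at most 1 count in a library.

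Identifiers with the same name were summed (6932 names had several, among them clone names that join separate loci). Naive (n = 4) and primed (n = 2) libraries were grouped by the labels. edgeR 4.0.16 in R 4.3.3 was used (glmQLFit, glmQLFTest, TMM, filterByExpr by state, Benjamini-Hochberg over 26497 names, common dispersion 0.0563). Each SE was derived from the test, as the absolute log2 fold change divided by the square root of its F statistic. TMM factors ran from 0.936 to 1.06. With 4 and 2 libraries an exact permutation test reaches no p below 0.0667. Counts of AICAR 1 and AICAR 2 were further apart than sampling noise allows (chi-square per name 26.8, other naive pairs 25.4 to 47.0) and were kept apart. Positions, overlaps and canonical transcript lengths came from GENCODE release 44. DESeq2 1.42.0 and limma-voom (limma 3.58.1) were alternatives, beside other scalings, filters, a block for the parental line, the AICAR libraries summed, identifiers kept apart and each library left out. The rest was done in Python 3.11.15 (pandas 2.3.3, numpy 2.4.6, scipy 1.17.1, matplotlib 3.10.9).

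The members and gene lists were chosen with earlier results of these data known. Every member, every metallothionein and every other SLC39 gene was named, and of the other zinc, iron and copper lists the 2 genes with the largest change past the threshold in each direction. SLC30A4, SLC30A5 and SLC40A1 were named after their values were seen. Marker lists are given as sums, with some genes named after their values were seen. COL3A1, DCN, LUM and FAP were named because they did not pass as lower. CDX2 was named for its primed counts, SUSD2 for the sort, and ALPG and DNMT3L for their high values.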

Additional observations from a re-analysis of the deposited data

How the results depend on the processing

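All 7 called genes kept their direction and stayed past the threshold under the 15 alternatives, and 2 genes higher and 5 lower were counted under each. Across them the log2 fold change of SLC39A4 ran from 5.66 to 6.37, that of SLC39A6 from -3.06 to -2.65 and that of SLC39A11 from 0.92 to 1.16. The highest adjusted p was 0.0254, for SLC39A9. SLC39A1 was not called under any and changed sign with library totals (0.064). With the parental line as a block, which ties each naive library to its own primed line, 2 were higher and 5 lower as well. The ratio of the summed naive to the summed primed level was 0.8295, 0.890 with library totals and, chosen after seeing the data, 0.678 without division by length. Shares of the sum depend on the length used. With the union of annotated exons, an alternative chosen after seeing the data, SLC39A4 made up 9.19% of the naive sum and SLC39A14 10.2%. Without division by length they made up 9.93% and 15.3%, and SLC39A10 made up 11.6%. Under both, SLC39A4 ranked lower in naive cells than with the canonical transcript. In the 250 bases before the start alone, 4 of the 8 genes with a window held the motif core in place of 5. Over all genes 24.8% of windows did in place of 29.6%, which are shares of windows and not of genes. Counted by gene, 33.4% of all symbols held a core in at least 1 window of full length. SLC39A4 in primed libraries rests on 54 and 32 counts.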
